A study of Mus musculus with 8 samples.

Results

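A list of 10 genes for regulators of RAS family proteins was compared between crypts of the small intestine (SI) and of the colon (COL). It held 6 GTPase-activating proteins (GAPs) and 4 guanine nucleotide exchange factors. The genes were taken by symbol as a given list, namely Rasa1, Rasa2, Rasa3, Rasal1, Rasal2 and Nf1 among the GAPs and Sos1, Sos2, Rasgrp1 and Rasgef1b among the exchange factors. All 10 were found among the 45706 genes counted, and 9 of them were among the 14491 genes with enough counts to be tested. The crypts came from 4 wild-type C57BL/6N mice, 2 female (mice 1 and 4) and 2 male (mice 2 and 3), labelled as wild type, for which no treatment and no age is given. Each mouse gave 1 SI and 1 COL library, called SI1 to SI4 and COL1 to COL4 by mouse, and total RNA was sequenced after the crypts had been released with EDTA. The study looked at whether the RAS/ERK pathway differs between the crypts of both tissues before any oncogene is present.

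RAS proteins are small GTPases at the inner face of the plasma membrane. They are active while they hold GTP. Exchange factors open the nucleotide pocket so that GTP can enter, and GAPs speed up the hydrolysis of GTP that ends the signal. In the intestinal epithelium, growth factor receptors of the EGF receptor family recruit SOS proteins through the adaptor GRB2, and RAS then activates RAF, MEK and ERK. NF1 (neurofibromin) is a tumour suppressor among the GAPs, whereas RASGRP and RASGEF1 proteins are exchange factors of other architecture than SOS. The counts give transcript levels and carry no information on the GTP loading of RAS.

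The libraries held 15969428 (COL2) to 32908060 (COL4) counts. Levels are given in CPM, the counts of a gene relative to the summed counts of the tested genes, scaled between libraries by TMM, a method that sets the typical gene equal across libraries. The share of counts from mitochondrial genes ran from 4.83% (COL4) to 50.8% (COL2) and was above 20% in SI2, SI3, COL1 and COL2, while the other 4 libraries had at most 7.35%. Of the SI libraries, the ones with the high share are those of the male mice, so that sex and mitochondrial share cannot be told apart within SI. All 6 SI markers passed the test towards SI and 3 of the 4 COL markers tested passed it towards COL, and Epcam, an adhesion molecule of epithelia, was at 391 to 906 CPM in every library. Epcam was 1 of 10 epithelial markers, of which 3 passed the test towards SI and 3 towards COL. The epithelium of the 2 tissues therefore differed in these markers. SI1 stood apart in the crypt base markers, with Lgr5 at 0.634 CPM against 5.81 to 11.2 CPM and Olfm4 at 9.74 CPM against 161 to 254 CPM in the other SI libraries. The methods describe weaker and shorter EDTA treatment for SI than for COL when crypts were taken for culture. Tissue and isolation therefore cannot be told apart if the same was done here.

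Only Sos2 passed the test between the tissues. Its level was higher in SI, while Sos1 leaned the same way and Rasa3 leaned towards COL, both without passing. Rasa1, Rasa2 and Nf1, 3 further GAPs with well-counted transcripts, overlapped between the tissues. The test was edgeR's quasi-likelihood test of SI against COL, with Benjamini-Hochberg adjustment across every gene tested and a threshold of 0.05. By this test 1 of 9 members was called, against 28.4% of all genes in either direction. In the SI direction it was 1 of 9 against 15.5% of all genes, and in the COL direction 0 of 9 against 12.9%. With no adjustment, 2 members were past 0.05 towards SI and 1 towards COL, and DESeq2 and limma-voom each called 1 in either direction. With so few members, nothing is read from the distance to these shares.

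**Figure D1:**
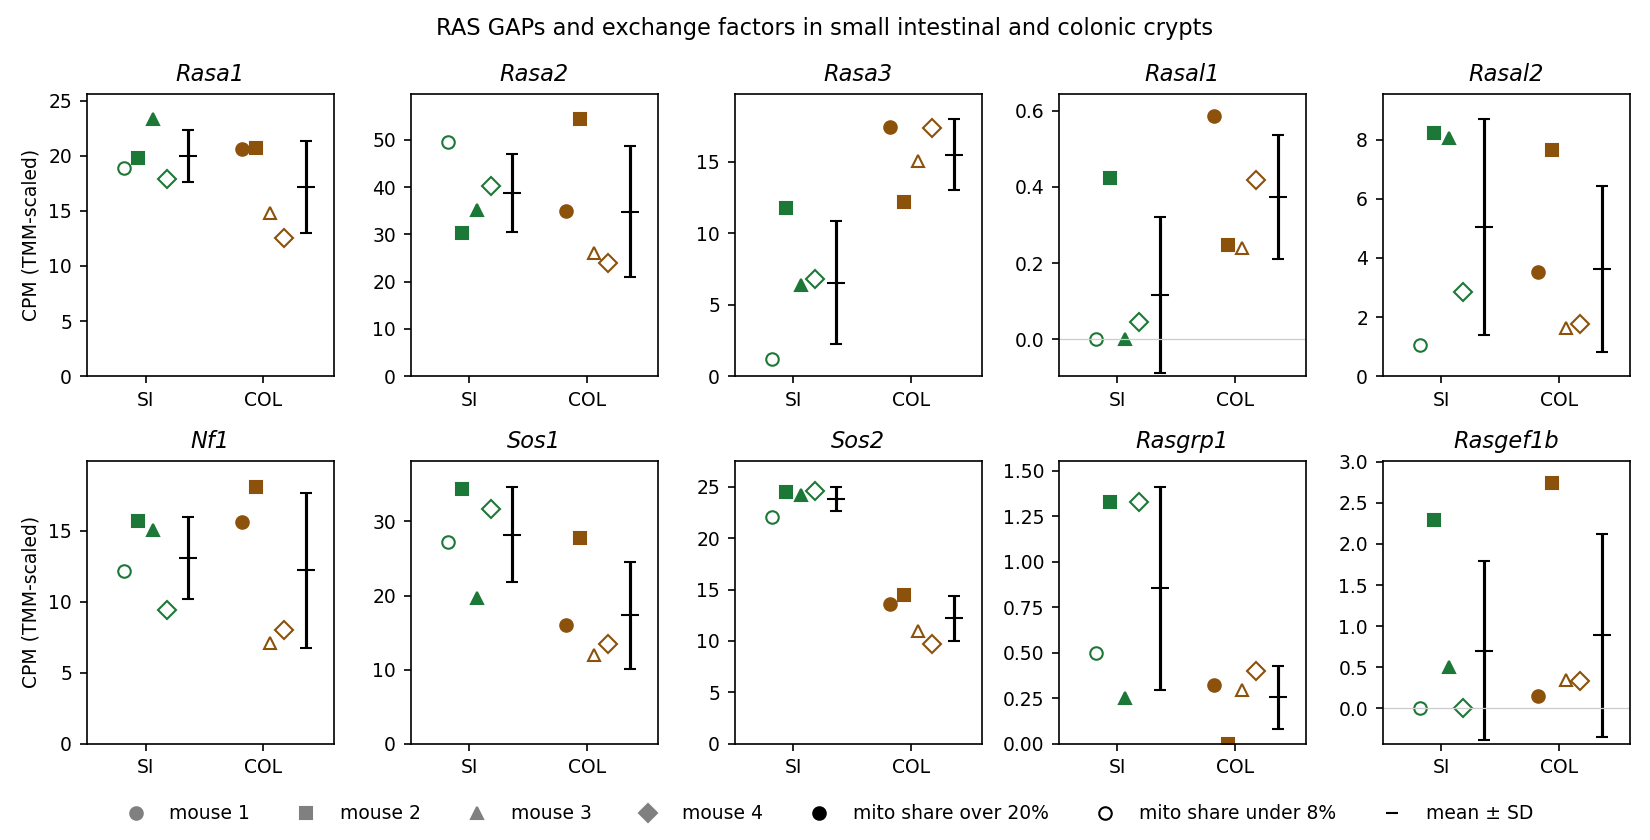
Level of each of the 10 genes in each library, in TMM-scaled CPM on linear axes that differ between panels, with SI in green and COL in brown. Marker shape gives the mouse, filled markers are libraries with a mitochondrial share of counts above 20%, and the black bar is the mean ± SD of 4 libraries. The SI and COL points of Sos2 (22.0 to 24.5 against 9.72 to 14.5 CPM) and of Rasa3 (1.22 to 11.8 against 12.2 to 17.4 CPM) do not overlap.

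The stretch of 250 bases before the transcription start is shown for the 3 genes whose levels leaned most clearly to 1 tissue, the SOS exchange factors as a pair and Rasa3. The sequences are those of RefSeq on GRCm38.p6, which had an entry for 9 of the 10 genes, and each is written 5′ to 3′ on the strand of the gene. Capitals mark matches on either strand to CCAAT (the CCAAT box), GGGCGG (the GC box) and CCGGAA (an ETS core).
Sos2, chr12:69681853-69682102, minus strand: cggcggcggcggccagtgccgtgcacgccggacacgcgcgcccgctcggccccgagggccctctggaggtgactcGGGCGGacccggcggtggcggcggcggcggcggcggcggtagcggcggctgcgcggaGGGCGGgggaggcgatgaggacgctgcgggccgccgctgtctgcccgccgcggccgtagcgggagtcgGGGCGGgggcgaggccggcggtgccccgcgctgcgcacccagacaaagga
Sos1, chr17:80480454-80480703, minus strand: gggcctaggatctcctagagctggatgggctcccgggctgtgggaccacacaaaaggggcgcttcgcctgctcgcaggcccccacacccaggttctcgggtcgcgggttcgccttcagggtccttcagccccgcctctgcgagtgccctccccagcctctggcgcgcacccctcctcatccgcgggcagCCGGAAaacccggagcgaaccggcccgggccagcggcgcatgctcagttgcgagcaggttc
Rasa3, chr8:13677588-13677837, minus strand: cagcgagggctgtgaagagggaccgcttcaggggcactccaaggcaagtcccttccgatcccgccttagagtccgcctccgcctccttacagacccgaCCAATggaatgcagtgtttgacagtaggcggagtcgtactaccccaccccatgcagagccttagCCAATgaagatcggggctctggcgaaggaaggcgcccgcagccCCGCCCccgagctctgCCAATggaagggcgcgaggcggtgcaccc
The Sos2 stretch was 82.8% G and C and held 3 GC boxes. The Sos1 stretch was 70.4% G and C, with 1 ETS core and neither of the other motifs, so the SOS pair shared no motif of the 3. Rasa3 had 3 CCAAT boxes and 1 GC box at 64.4% G and C. For comparison, the median over 32851 mouse promoters of the same length was 52.4% G and C, and 33.8% of them held a CCAAT box, 32.7% a GC box and 12.03% an ETS core. No match to the AP-1 motif TGACTCA was found in any of the 3 stretches. The same held for the GATA motif written as AGATAA and for the motif of the CDX factors, TTTATG. Among all promoters compared, 4.46% held the AP-1 motif, 9.99% the GATA motif and 10.8% the CDX motif, so absence is the usual case. These matches describe letters in the window.

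Sos2 encodes a ubiquitous exchange factor that is recruited to receptors by GRB2. The gene lies on chromosome 12 from 69583762 to 69681852 on the minus strand (GRCm38), and none of its transcript's 50-base stretches occurs in another gene. Its level was 22.0, 24.5, 24.2 and 24.5 CPM in SI1 to SI4 and 13.6, 14.5, 10.99 and 9.72 CPM in COL1 to COL4. Every SI library was thus above every COL library, and SI was higher in 4 of 4 mice. SI averaged 23.8 ± 1.20 CPM and COL 12.2 ± 2.21 CPM (SD, n = 4 each). The fitted log2 fold change of SI over COL was 0.97 (SE 0.24), a 1.95-fold higher level in SI, and it passed edgeR's quasi-likelihood test (adjusted p = 0.0111). Between the libraries with high mitochondrial share the log2 difference was 0.79, and between those with low share it was 1.16. When libraries were scaled by their total alone, the fold change fell to 0.24 and was not past the threshold (edgeR adjusted p = 0.465), and the median of all genes moved from -0.09 to -0.82. Relative to the median gene, Sos2 was 1.06 higher in SI under both scalings. A change of scaling shifts all genes nearly alike, so this likeness adds no support. Without a filter on low counts Sos2 also missed the threshold, at 0.92 (edgeR adjusted p = 0.0765).

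Sos1 is the closest relative of Sos2 and does the same step. It lies on chromosome 17 from 80393751 to 80480453, on the minus strand. Its CPM values were 27.2, 34.4, 19.6 and 31.7 in SI1 to SI4 and 16.02, 27.8, 11.96 and 13.5 in COL1 to COL4. SI was higher within 4 of 4 mice, but COL2 was above SI1 and SI3, so the groups overlapped. SI averaged 28.2 ± 6.46 CPM and COL 17.3 ± 7.18 CPM (SD, n = 4 each), and the log2 fold change of 0.71 (SE 0.32) did not pass (edgeR's quasi-likelihood test, adjusted p = 0.122). Without COL2 the fold change was 1.03 and past the threshold (edgeR adjusted p = 0.0191). Within libraries of high mitochondrial share the log2 difference was 0.30, and within those of low share it was 1.20. With the share as a covariate the fold change was 0.91 (edgeR adjusted p = 0.0187).

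The balance within the SOS pair was compared as the ratio of Sos1 to Sos2 counts per kb in each library, which does not depend on the scaling between libraries. It was 0.992, 1.13, 0.652 and 1.04 in SI1 to SI4 and 0.950, 1.54, 0.874 and 1.12 in COL1 to COL4, so both genes stood at about the same level per kb of merged exons in either tissue. SI minus COL was -0.23 on the log2 scale, less than the SD of 0.35 in SI and 0.36 in COL (two-sided exact permutation test over 70 assignments, p = 0.486, adjusted over 3 ratios p = 0.971). The smallest p this test can give is 0.0286. The level of 1 gene against the other depends on the length used. Per kb of the longest transcript, Sos1 averaged 3.35 against 4.24 for Sos2 in SI, and 2.05 against 2.17 in COL.

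The genes closest to Sos2 in their course over the 8 libraries, among 10636 compared by the root mean square difference of centred log2 CPM, were Zyg11b (0.0887), Hip1r (0.0925) and Wapl (0.130). This measure compares the course over libraries and leaves out the level.

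Of the 5 GAPs tested, Rasa3 had the largest absolute log2 fold change between the tissues. RASA3 is a membrane-bound GAP of the GAP1 family that acts on RAS and RAP, and the gene lies on chromosome 8 from 13566948 to 13677603, on the minus strand. It was at 1.22, 11.8, 6.39 and 6.78 CPM in SI1 to SI4 and at 17.4, 12.2, 15.03 and 17.4 CPM in COL1 to COL4. No SI library reached the lowest COL library, although SI2 and COL2, both of mouse 2, came close to each other. SI1 was far lower than the other SI libraries, with 27 counts against 126 to 195. SI averaged 6.54 ± 4.31 CPM and COL 15.5 ± 2.47 CPM (SD, n = 4 each). The log2 fold change of -1.25 (SE 0.51) did not pass (edgeR's quasi-likelihood test, adjusted p = 0.0924). Leaving out single libraries gave -1.68 to -0.88 (edgeR adjusted p of 0.0341 to 0.186), past the threshold only without SI2. Without both SI1 and COL2, the libraries with few crypt base transcripts and with the highest mitochondrial share, it was -1.02 (edgeR adjusted p = 0.0327). DESeq2 and limma-voom placed it past the threshold (adjusted p = 0.0359 and 0.0259), whereas edgeR with the mouse as a block did not (adjusted p = 0.0743). Relative to the median gene it was at -1.16 under TMM and -1.18 under scaling by library totals, which shifts all genes nearly alike. The log2 difference was -0.74 within libraries of high and -2.43 within those of low mitochondrial share.

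Sos2 and Rasa3 were 2 of 9 tested members whose SI and COL values did not overlap, against 33.5% of all genes tested. This is a count of a few genes near the share of all genes, and the difference from it was not tested.

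Rasa1, p120 RasGAP, is the GAP that binds activated receptors through SH2 domains. It was at 18.9, 19.8, 23.3 and 17.9 CPM in SI1 to SI4 and at 20.6, 20.7, 14.8 and 12.5 CPM in COL1 to COL4. The groups overlapped, with means of 19.99 ± 2.35 and 17.2 ± 4.15 CPM (SD, n = 4 each) and a log2 fold change of 0.22 (SE 0.26, edgeR's quasi-likelihood test, adjusted p = 0.565). Its gene is on chromosome 13, 85214780 to 85289130, minus strand, and overlaps the antisense gene Ccnh by 12 exonic bases.

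Rasa2, a GAP1 family member like Rasa3, lies on chromosome 9 from 96539300 to 96631617 (minus strand). It was at 49.6, 30.3, 35.2 and 40.2 CPM in SI and 35.0, 54.4, 26.1 and 23.9 CPM in COL. COL2 held the highest value of all and the groups overlapped. The means were 38.8 ± 8.24 and 34.8 ± 13.9 CPM (SD, n = 4 each), and the log2 fold change was 0.16 (SE 0.31, edgeR's quasi-likelihood test, adjusted p = 0.739). Rasa2 thus did not share the lean of Rasa3, although a difference between these fold changes was not tested.

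Nf1, on chromosome 11 from 79339693 to 79581612 on the plus strand, was at 12.1, 15.6, 15.1 and 9.43 CPM in SI and 15.6, 18.1, 7.11 and 7.98 CPM in COL. The COL values fell apart into a high pair (COL1, COL2) and a low pair (COL3, COL4) with the SI values between 9.43 and 15.6 CPM. Means were 13.1 ± 2.87 and 12.2 ± 5.48 CPM (SD, n = 4 each), and the log2 fold change was 0.10 (SE 0.36, edgeR's quasi-likelihood test, adjusted p = 0.861). Its sign was not stable, since it was -0.075 without COL3.

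Under library totals alone, which shift the median of all genes, the log2 fold changes of Rasa1, Rasa2, Rasal2 and Nf1 were -0.50, -0.54, -0.14 and -0.60. Relative to the median gene, they were 0.31, 0.25, 0.57 and 0.19 under TMM and 0.32, 0.28, 0.69 and 0.22 under library totals. Scaling shifts all genes nearly alike, so this likeness adds no support for a direction. None of the 4 genes passed the test under either scaling. The ratio of Rasa1 to Rasa2 per kb of merged exons was 0.826 to 1.43 in SI and 0.824 to 1.28 in COL, a log2 difference of 0.04 (two-sided exact permutation test, p = 0.971). Rasa1 was above Nf1 per kb in every library, 2.74 to 4.11 times in SI and 2.48 to 4.49 times in COL, and the log2 difference of these ratios was 0.06 (two-sided exact permutation test, p = 0.8286). Both adjusted p-values over the 3 ratios were 0.971. The ratios of these GAPs overlapped between the tissues in the same way as their levels.

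**Figure D2:**
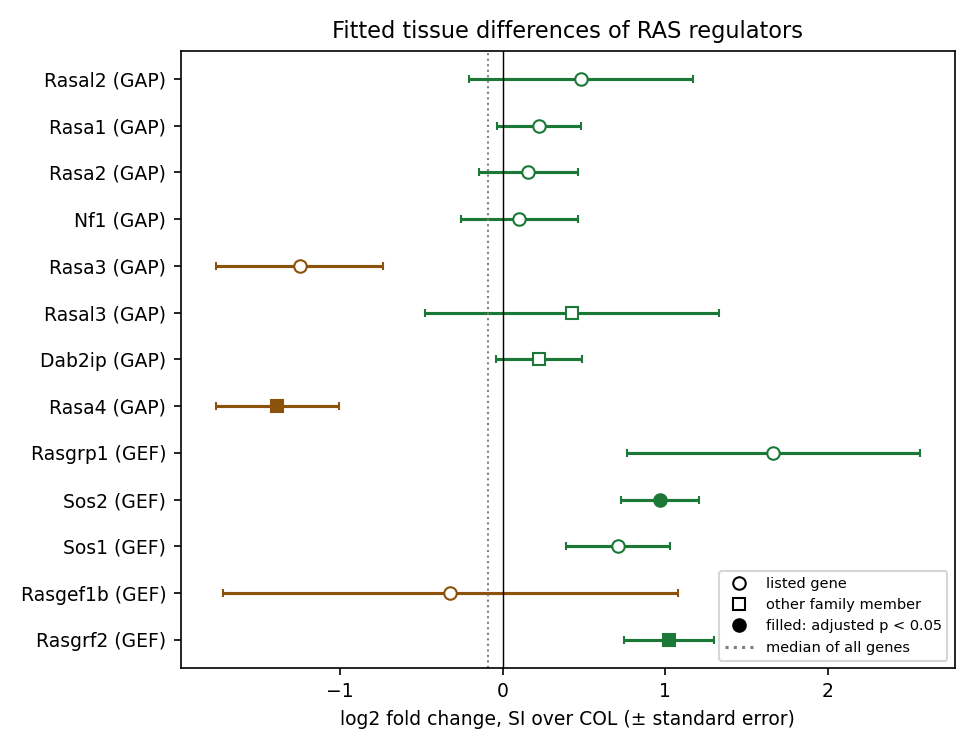
Fitted log2 fold change of SI over COL (x axis, points) with its standard error (bars) for the tested RAS GAPs and exchange factors (y axis), circles for the genes listed and squares for other members of both families, green for values above 0 and brown for those under 0. Filled symbols passed edgeR's adjusted threshold of 0.05, the dotted line is the median of all genes (-0.09), and Rasgef1a, which had no counts in SI, is left out. Of the circles, Sos2 (0.97) alone is filled.

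Rasal2, a further GAP with its gene on chromosome 1 (157135182 to 157412595, minus strand), varied more among the libraries of a tissue than between the tissue means. It was at 1.04, 8.22, 8.06 and 2.84 CPM in SI1 to SI4 and at 3.52, 7.65, 1.63 and 1.76 CPM in COL1 to COL4. The high values lay in SI2, SI3 and COL2. The means were 5.04 ± 3.65 and 3.64 ± 2.81 CPM (SD, n = 4 each), and the log2 fold change was 0.48 (SE 0.69, edgeR's quasi-likelihood test, adjusted p = 0.646). It was 1.08 without COL2 and 0.17 without SI2. Of its exonic bases, 244 overlap the antisense gene 2810025M15Rik, whose reads cannot be told apart from it unless strand was used in counting, which is not given in the sources used here.

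The libraries with high values of Rasal2 were those with a high mitochondrial share. In a fit with the tissue and the mitochondrial share, a term chosen after the data had been seen, Rasal2 rose by 0.61 on the log2 scale for each 10 percentage points of share (edgeR's quasi-likelihood test, adjusted p = 0.0168). Nf1 rose by 0.28 (edgeR adjusted p = 0.0283). These were 2 of 9 members, against 20.8% of all genes tested, so the members' share is near that of all genes. Rasal2, Nf1 and Rasa1 were each higher in all 4 libraries of high share than in all 4 of low share, but the term for Rasa1 did not pass (0.14, edgeR adjusted p = 0.161). How many of all genes separate in this way was not counted, so nothing is read from this separation. Sos2 did not move with the share beyond the threshold (0.10, edgeR adjusted p = 0.264). What the mitochondrial share stands for in these libraries was not tested.

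**Figure D3:**
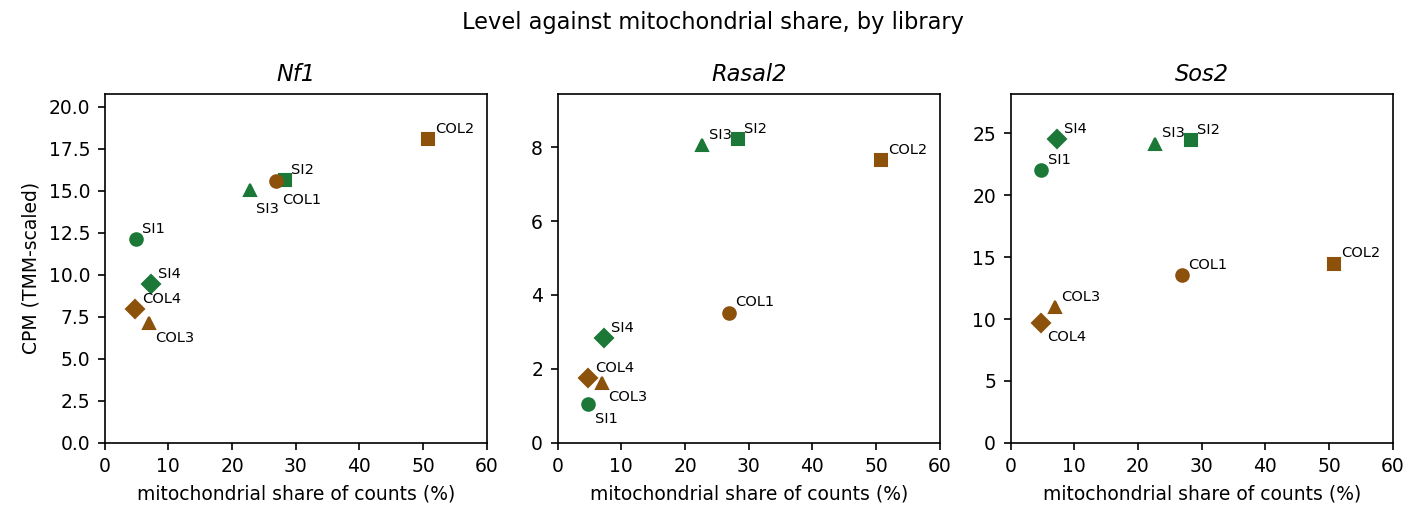
CPM (y axis, from 0) of Nf1, Rasal2 and Sos2 against the percentage of counts from mitochondrial genes (x axis), 1 point a library, SI in green and COL in brown. Nf1 lies at 7.11 to 12.1 CPM in the 4 libraries of low share and at 15.1 to 18.1 CPM in those of high share, whereas Sos2 separates by tissue at either share.

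Rasal1, Rasgrp1 and Rasgef1b were near the limit of detection. Rasal1, a calcium-sensing GAP whose gene lies on chromosome 5 (120648812 to 120679597, plus strand), had 0, 7, 0 and 1 counts in SI1 to SI4 and 20, 4, 9 and 20 counts in COL1 to COL4. It stayed under the filter and was not tested. The 0 counts allow up to 0.136 CPM in SI1 and 0.152 CPM in SI3 (3 counts in that library, counting error only). COL held 53 of its counts and SI 8, but SI2 at 0.423 CPM was above COL2, COL3 and COL4, so the groups overlapped.

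Rasgrp1, on chromosome 2 from 117279993 to 117343001 (minus strand), encodes a diacylglycerol-dependent exchange factor best known from T cells. It had 11, 22, 5 and 29 counts in SI1 to SI4 and 11, 0, 11 and 19 in COL1 to COL4. The levels were 0.498, 1.33, 0.253 and 1.33 CPM in SI and 0.323, 0, 0.294 and 0.398 CPM in COL, where the 0 of COL2 allows up to 0.186 CPM. SI3 fell among the COL values, and the log2 fold change of 1.66 (SE 0.90) did not pass (edgeR's quasi-likelihood test, adjusted p = 0.190). T cell transcripts moved with the tissue, 5 of 10 tested markers of 12 being called higher in SI and none in COL (edgeR, with 7 and 0 at an unadjusted p under 0.05 and by both DESeq2 and limma-voom). Their summed level was 61.4 to 183 CPM in SI and 18.4 to 64.5 CPM in COL, and no marker of the list was without counts. The most abundant, Cd7, averaged 22.9 ± 12.6 CPM in SI against 4.04 ± 3.85 CPM in COL (SD, n = 4 each). SI1 had the largest sum, 183 CPM, SI4 the next and SI2 the lowest of the SI libraries, 61.4 CPM. Rasgrp1 was highest in SI2 and SI4, and the part of T cells in its level was not tested. In such bulk RNA, fewer cells of a type and less RNA per cell cannot be told apart.

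Rasgef1b encodes an exchange factor that is induced in macrophages by microbial products, and the gene lies on chromosome 5 from 99217426 to 99729065 (minus strand). It was at 0, 2.30, 0.507 and 0 CPM in SI1 to SI4 and at 0.147, 2.73, 0.348 and 0.335 CPM in COL1 to COL4. Both libraries of mouse 2 stood above the rest, and the 0 counts allow up to 0.136 CPM in SI1 and 0.137 CPM in SI4. The log2 fold change was -0.32 (SE 1.398, edgeR's quasi-likelihood test, adjusted p = 0.887) and changed sign when COL2 was left out (1.25). The same 2 libraries had the most stromal, endothelial and neural transcripts, with summed stroma markers of 11.2 CPM in SI2 and 10.1 CPM in COL2 against at most 6.29 CPM elsewhere. Endothelial sums were 4.47 and 5.84 CPM there against at most 3.13 CPM, and neural sums were 2.60 and 3.60 CPM against at most 0.608 CPM. Their part in the Rasgef1b values was not tested.

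Levels of different genes were set side by side per kb of merged exons. In SI, Sos2 (2.80 ± 0.141 CPM per kb), Rasa1 (2.73 ± 0.321), Sos1 (2.66 ± 0.610) and Rasa2 (2.45 ± 0.520) stood highest, with ranges that overlapped (SD, n = 4 each). Rasa3 followed at 1.28 ± 0.847 CPM per kb and overlapped with both Rasa2 and Nf1 (0.825 ± 0.181). Rasal2 was at 0.367 ± 0.266 CPM per kb, and Rasgrp1, Rasgef1b and Rasal1 were at 0.152 or less. In SI, therefore, no single gene stood out among the leading 4.

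In COL the order differed at the top. Rasa3 led at 3.04 ± 0.485 CPM per kb, before Rasa1 (2.34 ± 0.567), Rasa2 (2.20 ± 0.876), Sos1 (1.63 ± 0.678) and Sos2 (1.43 ± 0.260), neighbours whose ranges overlapped (SD, n = 4 each). Nf1 was at 0.770 ± 0.345, Rasal2 at 0.265 ± 0.204, and the last 3 genes at 0.106 CPM per kb or less. Rasa3 had rank 1 of the 10 in COL1, COL3 and COL4 and rank 4 in COL2, and it ranked 4 to 6 in SI. Its share of the summed GAP level was 3.53, 26.8, 15.3 and 18.7% in SI1 to SI4 and 34.7, 23.0, 40.6 and 46.2% in COL1 to COL4. This order rests on the length used, since per kb of the longest transcript Rasa2 led in both tissues, with means of 5.90 in SI and 5.30 in COL against 1.49 and 3.52 for Rasa3.

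The GAP levels were also summed and divided by the sum of the exchange factors within each library, a ratio that scaling between libraries cannot change. The 6 GAPs summed to 7.69 ± 0.870 CPM per kb in SI and 8.72 ± 1.65 in COL, and the 4 exchange factors to 5.66 ± 0.798 in SI and 3.18 ± 0.951 in COL (SD, n = 4 each). The ratio was 1.30, 1.32, 1.72 and 1.16 in SI1 to SI4 and 3.10, 2.30, 2.90 and 2.94 in COL1 to COL4. All COL libraries were above all SI libraries, with means of 2.81 ± 0.350 and 1.38 ± 0.238. The exchange factor sum was at least 4.77 in every SI library and at most 4.52 in COL. It was nearly all Sos1 and Sos2, as Rasgrp1 made up at most 3.88% and Rasgef1b at most 4.38% in any library. The GAP sums overlapped, with 8.64 in SI2 against 7.25 in COL3. Rasa3 also carried part of the difference in the ratio, which without Rasa3 was 0.947 to 1.45 in SI and 1.58 to 2.03 in COL. With Rasa1, Rasa2 and Nf1 over Sos1 and Sos2 alone, it was 0.916 to 1.35 in SI and 1.54 to 1.94 in COL. From raw counts without length it was 1.34 to 1.98 in SI and 2.52 to 3.09 in COL. All these forms keep Sos1 and Sos2 in the denominator, so they largely restate the higher SOS levels in SI and are no separate finding. The ratio mixes genes that were tested singly above, and it is given as a description with no test. The sums cover listed genes only and are not the whole GAP or exchange factor content. Among relatives left out, the GAP Dab2ip was at 6.34 CPM per kb in SI and 5.42 in COL. The GAP Rasa4 was at 1.77 and 4.60, and the exchange factor Rasgrf2 at 1.36 and 0.667.

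**Figure D4:**
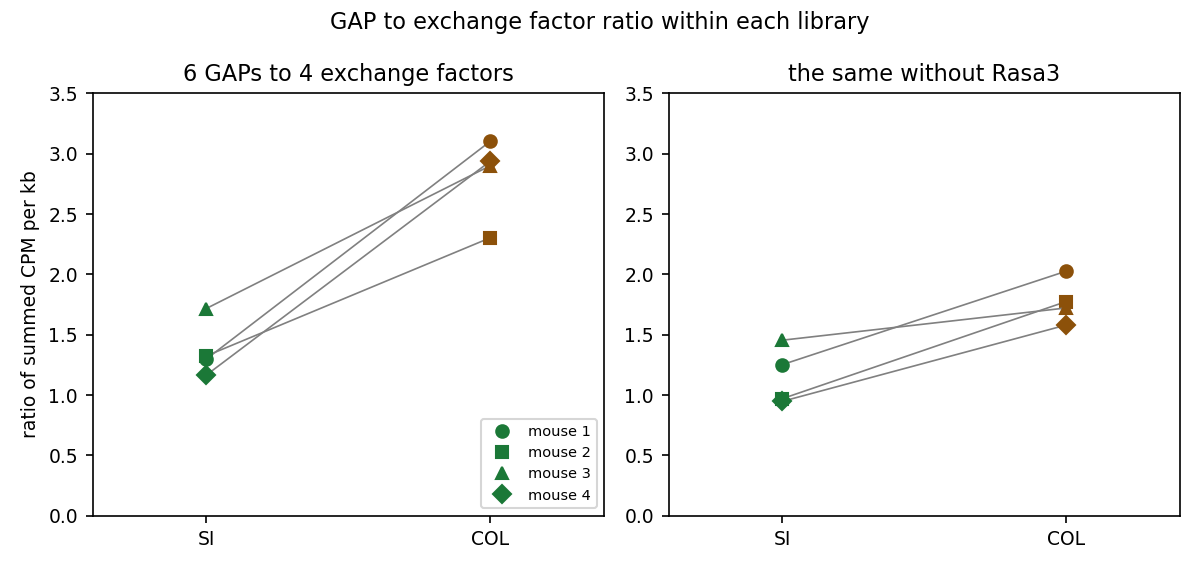
Ratio of the summed GAP level to the summed exchange factor level (y axis, CPM per kb over CPM per kb) in each library, with lines joining SI and COL of the same mouse, for all 10 genes (left) and without Rasa3 (right). All 4 lines rise from SI to COL in both panels, from 1.16 to 1.72 in SI to 2.30 to 3.10 in COL on the left.

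Beyond the 10 genes, other members of both families were read from the same fit. Rasa4, a calcium-dependent GAP of the GAP1 family like Rasa2 and Rasa3, was at 7.07, 23.3, 14.1 and 8.38 CPM in SI and 28.1, 44.4, 34.1 and 31.2 CPM in COL. It was higher in COL in 4 of 4 mice, with a log2 fold change of -1.38 (SE 0.38, edgeR's quasi-likelihood test, adjusted p = 0.0172). Rasgrf2, a calcium-responsive exchange factor, was at 10.96, 14.7, 12.98 and 11.4 CPM in SI and 7.22, 6.34, 4.81 and 6.28 CPM in COL and was higher in SI in 4 of 4 mice, with a log2 fold change of 1.02 (SE 0.28, edgeR adjusted p = 0.0171). Rasgef1a, a relative of Rasgef1b, had no counts in SI and 19, 10, 29 and 26 counts in COL1 to COL4 (edgeR adjusted p = 0.00284), which is at least 16.6-fold higher in COL when SI is set to 3 counts over its 4 libraries. It passed the filter on low counts through COL alone, so this p-value adds no support beyond the counts. The GAPs Dab2ip and Rasal3 overlapped between the tissues (edgeR adjusted p = 0.570 and 0.763). Rasgrp2, Rasgrp3, Rasgrp4, Rasgrf1 and Rasgef1c were under the filter, at no more than 0.862 CPM in any library.

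Around the regulators, 61 genes of the pathway were listed, counting the relatives above, and 55 were tested. Of these, 8 were called higher in SI and 9 higher in COL, beside the 15.5% and 12.9% of all genes. The 9 in COL include Rasgef1a and Rgl3, which passed the filter on low counts through their COL libraries. The median log2 fold change was -0.016 against -0.09 over all genes and against 0.22 over the 9 members. Under library totals alone the split was 2 in SI and 23 in COL. Leaving out single libraries gave 3 to 8 in SI and 7 to 10 in COL, with 3 in SI without SI4, COL1 or COL4 and 4 without SI1. Of 12 receptors and adaptors upstream of SOS, 4 were called higher in SI and none in COL (edgeR, with 5 and 1 at an unadjusted p under 0.05 and by both DESeq2 and limma-voom), including Met, the hepatocyte growth factor receptor, at 21.5 ± 4.26 against 12.02 ± 1.53 CPM, and the docking protein gene Frs2 at 18.7 ± 1.79 against 10.4 ± 2.79 CPM (SD, n = 4 each). Erbb3, a receptor that pairs with ERBB2, had a log2 fold change of 1.37 (edgeR adjusted p = 0.0317), with groups that overlapped. None of the 6 RAS GTPase genes was called by edgeR, DESeq2 or limma-voom, and 1 was past an unadjusted p of 0.05 in edgeR, towards SI. Of 11 tested effector genes, 1 was called in SI, Rassf5 at 2.56 (edgeR adjusted p = 0.0104). In COL 2 were called, Rgl3 at -2.80 (edgeR adjusted p = 0.0115) and Plce1 at -1.80 (edgeR adjusted p = 0.0404). Rgl3 had 5, 19, 4 and 6 counts in SI1 to SI4 against 91, 61, 174 and 81 in COL1 to COL4. It passed the filter on low counts through its COL libraries, so its p-value adds no support beyond these counts. Of 4 genes for SPRED proteins and LZTR1, which work with neurofibromin or on RAS turnover, 1 was called higher in COL.

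The pairing of libraries by mouse left the main call in place and moved the count in 1 tool. With the mouse as a block, edgeR called Sos2 alone (0.98, adjusted p = 0.0261), whereas limma-voom called 3 members, Sos2, Sos1 (adjusted p = 0.0492) and Rasa3 (adjusted p = 0.0456). Leaving out SI1 and COL2 also gave 3 of the members, 2 higher in SI and 1 higher in COL, and 11 of the pathway genes.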

How the data were processed

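Crypt RNA was sequenced on a HiSeq4000. Reads were paired-end. After trimming with Trimmomatic, STAR was used by the authors for alignment to mm10 and for counting, and they deposited raw whole-number counts per Ensembl gene, 1 column per library. The submitters' processing notes give Trimmomatic 0.36 and STAR 2.5.2b and list mm9 beside mm10. The annotation release and the use of strand are not given in the sources used here. Totals were 15969428 to 32908060 counts, and limits for counts of 0 cover counting error only.

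Groups and mice were taken from the labels, which number the donors 1, 2, 3 and 5, called mice 1 to 4 here. The sexes are those the study gives for its mice 1 to 4. That its mouse 4 is donor 5 of the labels, and that the other numbers match, is assumed. Symbols and positions are from GENCODE vM21 on GRCm38 (45143 of 45706 identifiers matched). R 4.3.3 and edgeR 4.0.16 were used (quasi-likelihood test, TMM, filterByExpr by tissue, Benjamini-Hochberg over 14491 genes, threshold 0.05). Alternatives were limma 3.58.1 (voom), DESeq2 1.42.0, other scalings and filters, the mitochondrial share, the mouse as a block and leaving out libraries. The methods name limma for SI against COL, with the same adjustment and threshold, and give neither its normalization nor a term for the mouse. Scripts were tested on simulated data. Exact permutation tests (SciPy 1.17.1) used all 70 assignments, and log2 differences within libraries of like mitochondrial share used an offset of 0.1 CPM. Libraries of a mouse correlated in their deviations from the tissue means at -0.24, 0.39, -0.08 and 0.33 for mice 1 to 4, against a mean of -0.03 for other pairs. The pairing itself comes from the donor labels.

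The members and lists were chosen with earlier results of these data known. Named were the members, their family relatives (1 is not reported here), the pathway genes past the threshold (up to 6 with the largest change each way), the 3 genes nearest in profile to a called member (mean log2 CPM not under 1) and the most abundant marker of a list. Epcam, Lgr5 and Olfm4 were named after their values were seen.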

Additional observations from a re-analysis of the deposited data

Results flagged for a closer look

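In all, 3 single values stood far from the other 3 libraries of their tissue by Dixon's ratio, among 26 groups of 4 tested, where chance marks about 1 group in 20. Rasal1 was at 0.423 CPM in SI2, with the other SI libraries at 0 to 0.0458 CPM, a value that rests on 7 counts. Rasgef1b was at 2.73 CPM in COL2, with the other COL libraries at 0.147 to 0.348 CPM. Sos2 was at 22.0 CPM in SI1, under the 24.2 to 24.5 CPM of the other SI libraries, which is a small gap beside the tissue difference. SI2 and COL2 are both of mouse 2 and held the highest sums of stromal, endothelial and neural markers. The myeloid sum was highest in SI1 (19.1 CPM) and was 4.85 CPM in COL2. The part of these cell types in the flagged values was not tested.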

How the results depend on the processing

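Sos2 kept its direction in all 18 alternatives and was called in 16, the exceptions being library totals alone (0.24) and no filter (0.92), where Rasa3 was the gene called in its place. Leaving out single libraries gave Sos2 0.88 to 1.06 (edgeR adjusted p of 0.00989 to 0.0488). Rasa3 also kept its direction and was past the threshold in 7 of 18, and Sos1 in 4 of 18. The count of members called, 1, became 2 with DESeq2, limma-voom and the mitochondrial share as covariate, 3 with limma-voom and the replicate block, 1 to 2 without single libraries (2 without SI2 or COL2) and 3 without SI1 and COL2, an alternative chosen after seeing the data. The 17 pathway genes became 10 to 18 without single libraries (11 without SI4, 10 without COL1), 11 without SI1 and COL2, and 16 with the replicate block in edgeR.

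Signs reversed under library totals alone for Rasa1 (-0.50), Rasa2 (-0.54), Rasal2 (-0.14) and Nf1 (-0.60), a scaling that moved the median of all genes to -0.82. Relative to that median none of the 4 changed side, which adds no support because scaling shifts all genes nearly alike. Nf1 also reversed with at least 10 counts in every library (-0.029) and without mitochondrial genes (-0.030), single libraries moved it from -0.075 to 0.33, and it was 0.35 without SI1 and COL2. Rasgef1b ran from -2.33 to 1.25 without single libraries and was 1.67 without SI1 and COL2. The ratio of Rasa1 to Rasa2 ran from -0.10 to 0.19 and that of Rasa1 to Nf1 from -0.067 to 0.22. Per kb of the longest transcript, the ratio of GAPs to exchange factors was 1.71 in SI and 3.17 in COL. The causes were not tested. Rasgrp1 and Rasgef1b gave no value under the filter of 10 counts in every library. With the replicate block, edgeR gave Sos2 0.98, and the block in edgeR changed no call of a member. Rasgrp1 held 5 to 29 counts where detected, so its values carry a wide counting error.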

Other observations

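RAP proteins are close relatives of RAS with their own exchange factors and GAPs, and Rasa3 acts on both. Of 17 RAP pathway genes tested, 2 were called higher in SI and 4 higher in COL by edgeR's quasi-likelihood test. Over all genes, 15.5% were called higher in SI and 12.9% higher in COL, and the difference from these shares was not tested. The GTPase gene Rap2a averaged 5.42 ± 1.54 CPM in SI against 20.05 ± 2.55 CPM in COL (SD, n = 4 each), with a log2 fold change of -1.89 (edgeR adjusted p = 0.000641), and was higher in COL in 4 of 4 mice. Its relative Rap2c went the other way, with 65.6 ± 25.6 CPM in SI against 11.7 ± 2.84 CPM in COL, a log2 fold change of 2.49 (edgeR adjusted p = 0.00027). The exchange factor gene Rapgef3, whose product responds to cyclic AMP, was at 1.47 ± 1.27 and 18.9 ± 3.40 CPM, and Rap1gap, a GAP for RAP1, was at 4.20 ± 2.40 and 45.4 ± 17.9 CPM, with log2 fold changes of -3.70 and -3.44 (edgeR adjusted p = 0.000436 and 0.000273). For these 4 genes, which were named for the size of their change, the SI and COL libraries did not overlap. The same held for 33.5% of all genes tested.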
